A study of Mus musculus with 18 samples.

Results

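Transcripts of 8 complement genes were examined in mouse bone marrow-derived macrophages (BMDM) that had been loaded with oxidized low-density lipoprotein (oxLDL), with or without the receptor gene Treml4. The genes were C1qa, C1qb, C1qc, C3, C3ar1, C4b, Cfb and Cfp, taken by symbol from the 18668 genes of the expression table, and all 8 were found. With oxLDL at 60 µg/ml, C3, Cfb and C3ar1 fell in both genotypes, whereas the 3 C1q chains and Cfp showed no change that passed the test, and no member was called different between the genotypes. C4b was close to the limit of detection. It was the only member that did not reach at least 0.1 RPKM in at least 3 libraries, so 7 of the 8 members were among the 12838 genes tested. RPKM are reads scaled to the length of the transcript and to the reads of the library, so the levels of different genes can be set side by side per length.

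Both genotypes lacked Apoe, the gene of apolipoprotein E, and were on the C57BL6 background. One carried no other labelled deletion (Apoe-/-), and the other also lacked Treml4 (Apoe-/-/Treml4-/-, here DKO). Marrow cells were grown with M-CSF for 7 days and then received PBS as vehicle (untreated), oxLDL at 10 µg/ml (oxLDL 10) or oxLDL at 60 µg/ml (oxLDL 60), with 3 biological replicates in each of the 6 groups and 18 libraries in all. The series gives 16 h of treatment, while the study's text gives a longer time, and a treatment label names LPS in place of oxLDL. Both points were left unresolved. Since every animal lacked Apoe, no group shows the response of wild-type cells.

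Complement is a cascade of proteins that marks particles and dead cells for uptake and attracts leukocytes. C1q, a hexamer built from A, B and C chains, starts the classical pathway, and macrophages are a main source of it. C3 is the component on which the pathways converge, factor B (Cfb) supplies the protease of the alternative-pathway convertase, and properdin (Cfp) stabilizes that convertase. Component C4 is cleaved in the classical and lectin pathways, and C3ar1 encodes the receptor for the C3a fragment.

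Depth recovered from the table was 39.8 to 54.2 M reads per library, a ratio of 1.36. Treml4 was at 1.86 to 8.39 RPKM in the Apoe-/- libraries and was listed at 0 in 8 DKO libraries and at 0.012 RPKM in the other one, as labelled. Apoe still had reads, at 0.94 to 1.87 RPKM in untreated Apoe-/- and 0.35 to 0.77 RPKM in untreated DKO libraries. With oxLDL 10 the ranges were 1.65 to 4.13 and 0.67 to 1.39 RPKM, and with oxLDL 60 they overlapped. These genotype differences were not called (limma adjusted p = 0.155, 0.379 and 0.63), but 2, 2 and 1 of 17 alternative settings called them. Xist, expressed from the inactive X chromosome of females, was at 7.25 to 14.5 RPKM in 6 libraries, namely Apoe-/- replicate 2 and DKO replicate 3 at each treatment, whereas the other 12 had 0.069 RPKM or less. The macrophage markers Adgre1, Csf1r, Cd68, Lyz2, Mertk, Fcgr1 and Cd14 summed to 5480 to 11853 RPKM. Most of this sum was Lyz2, at 3970 to 9911 RPKM, and the highest value of any other marker was 671 RPKM (Cd68). By contrast, the sums were 31.4 to 85.1 RPKM for 8 neutrophil markers, 0.62 to 15.2 for 7 fibroblast or stromal markers, 1.19 to 2.42 for 5 B cell markers, and at most 0.256 and 0.308 for 4 T cell and 4 dendritic cell markers. In such bulk samples, fewer cells of a type and less RNA per cell cannot be told apart.

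Sequence before the start of transcription was available in RefSeq (GRCm38.p6) for 5 of the 8 members, C1qb, C1qc, C3, C3ar1 and Cfp, and not for C1qa, C4b and Cfb. The 250 bases are shown for C3 and C3ar1, which fell with oxLDL, and for C1qb, which was the most abundant member. Capitals mark matches to TTGCGNAA (C/EBP) in C3 and to TGANTCA (AP-1) in C3ar1.
C3, chr17:57228137-57228386, minus strand: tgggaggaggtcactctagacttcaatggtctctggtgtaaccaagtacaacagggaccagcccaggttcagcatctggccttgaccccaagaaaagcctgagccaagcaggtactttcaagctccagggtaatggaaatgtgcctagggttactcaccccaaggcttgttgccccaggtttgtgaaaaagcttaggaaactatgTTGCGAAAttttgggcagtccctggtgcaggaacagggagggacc
C3ar1, chr6:122856158-122856407, minus strand: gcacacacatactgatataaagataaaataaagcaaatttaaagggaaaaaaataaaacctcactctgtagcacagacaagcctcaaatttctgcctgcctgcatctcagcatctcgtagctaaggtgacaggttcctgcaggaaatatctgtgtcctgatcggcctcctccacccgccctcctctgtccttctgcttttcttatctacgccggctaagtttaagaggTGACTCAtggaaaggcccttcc
C1qb, chr4:136886201-136886450, minus strand: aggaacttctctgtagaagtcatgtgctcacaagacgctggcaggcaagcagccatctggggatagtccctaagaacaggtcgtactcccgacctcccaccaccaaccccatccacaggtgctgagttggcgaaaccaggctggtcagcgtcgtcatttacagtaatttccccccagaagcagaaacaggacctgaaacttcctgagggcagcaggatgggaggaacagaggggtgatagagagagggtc
The C3 match lay 45 bases before the start, and TTGCGNAA occurred on either strand in 0.67% of 32851 mouse promoter windows of the same length. The C3ar1 match lay 22 bases before the start, and 6.75% of the windows held TGANTCA. Neither motif was found in the windows of C1qb, C1qc or Cfp. The interferon-gamma-activated motif TTCNNNGAA, present in 7.02% of all windows, had no match in any of the 5. GAGGAA (PU.1), present in 23.3% of all windows, matched in C1qb and C1qc and not in the other 3. These motifs were chosen after the windows had been seen, the matches may overlap, and no binding was measured.

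**Figure D1:**
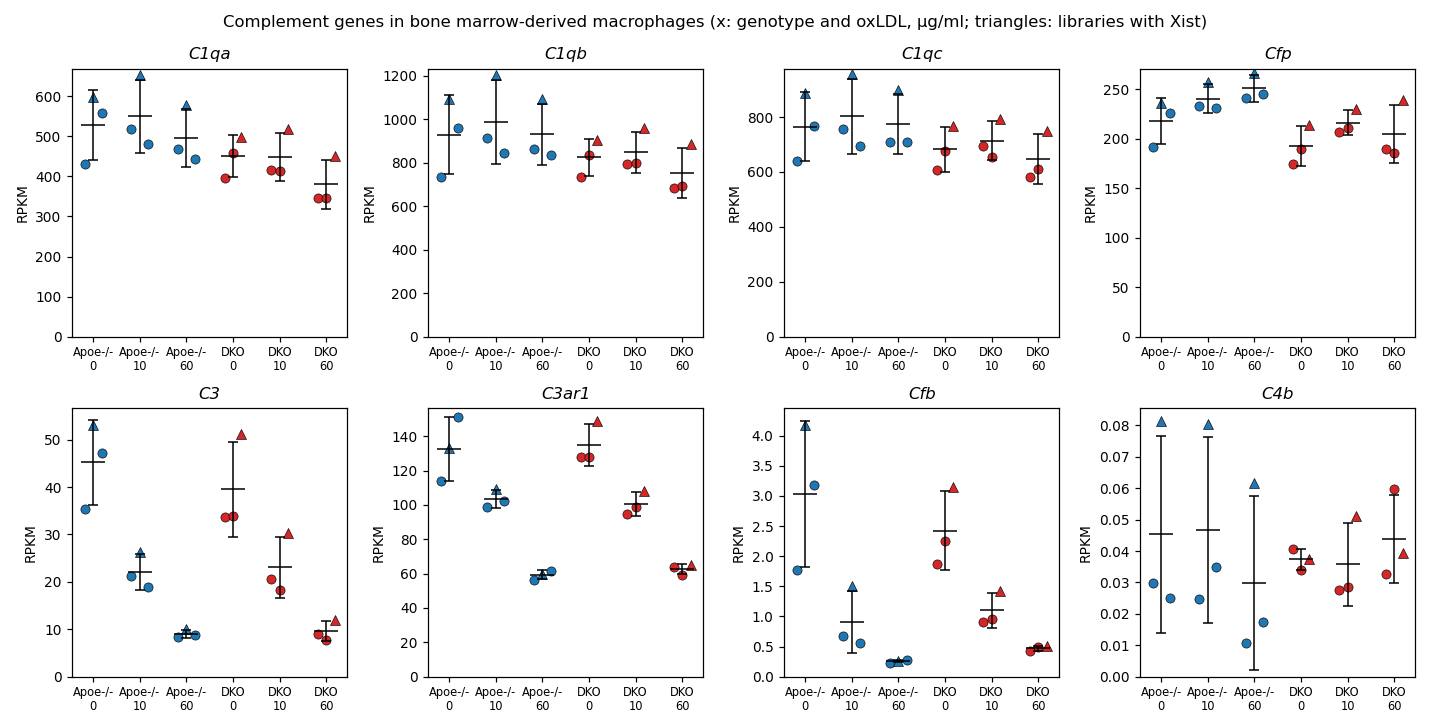
RPKM of the 8 complement members (vertical axes from 0) in each of the 18 libraries, by genotype and oxLDL in µg/ml. Circles and triangles are single libraries, triangles are the libraries with Xist, and horizontal lines with bars are the mean ± SD (n = 3). C3, C3ar1 and Cfb step down with oxLDL in both genotypes, C1q and Cfp do not, and C4b stays under 0.1 RPKM.

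The 3 genes of C1q lie beside each other on the minus strand of chromosome 4 (mm10), with C1qb at chr4:136880129-136886187, C1qc at chr4:136889804-136893065 and C1qa at chr4:136895917-136898803. Their transcripts were among the most abundant of the cells, and by mean RPKM C1qb ranked 38, C1qc 51 and C1qa 115 of 18668 genes. In untreated Apoe-/- cells C1qa was at 430, 598 and 557 RPKM in replicates 1 to 3, and with oxLDL 60 it was at 467, 577 and 443 RPKM. In untreated DKO cells it was at 395, 459 and 498 RPKM, and with oxLDL 60 at 345, 345 and 451 RPKM. The ranges overlapped in both genotypes. The log2 change with oxLDL 60 was -0.09 ± 0.15 (SE) in Apoe-/- (95% interval -0.41 to 0.24, limma adjusted p = 0.722) and -0.25 ± 0.15 in DKO (-0.58 to 0.08, adjusted p = 0.266). In DKO the change was negative in all 3 pairs of same-numbered libraries, at -0.20, -0.41 and -0.14. With a term for the libraries with Xist the limma adjusted p was 0.0255 there. The difference stayed under the 1.4-fold limit and was called in 0 of 17 alternative settings.

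C1qb, the chain with the highest transcript level, averaged 928 ± 181 RPKM (SD, n = 3) in untreated Apoe-/- cells, 986 ± 192 with oxLDL 10 and 929.6 ± 139.8 with oxLDL 60. The DKO means were 825 ± 84.1, 849 ± 94.0 and 754 ± 115 RPKM. C1qc averaged 765 ± 125, 802 ± 137 and 773 ± 109 RPKM in Apoe-/- and 683 ± 81.6, 715 ± 71.0 and 648 ± 89.5 RPKM in DKO. When the 6 groups were ordered by mean for each chain, no neighbouring groups were separated. With oxLDL 60 the intervals of the log2 change were -0.33 to 0.36 for C1qb and -0.29 to 0.33 for C1qc in Apoe-/-, and -0.48 to 0.21 and -0.39 to 0.23 in DKO, so changes as large as the decrease of C3ar1 described below lay outside them. In DKO the change with oxLDL 60 was negative in all 3 pairs of same-numbered libraries for both chains, as for C1qa. It was -0.11, -0.27 and -0.03 for C1qb and -0.06, -0.14 and -0.04 for C1qc, beside a median of -0.06 over all genes. The sign of the C1qb and C1qc differences with oxLDL 60 in Apoe-/- turned negative with median ratio scaling.

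The chains moved together from library to library. Over the 18 libraries, Pearson's r was 0.968 for C1qb with C1qa, 0.944 for C1qc with C1qa and 0.987 for C1qb with C1qc, where libraries of one animal and one treatment share their source. The ratio of C1qb to C1qa was nonetheless not constant. It was 1.71, 1.72 and 1.82 (lowest, median and highest) in untreated Apoe-/- libraries and 1.84, 1.89 and 1.89 with oxLDL 60, and these ranges did not overlap. In DKO it was 1.81, 1.82 and 1.86 in untreated cells and 1.96, 1.98 and 2.01 with oxLDL 60, again without overlap. At oxLDL 60 every DKO library also lay above every Apoe-/- library. For each of these 3 comparisons the two-sided exact permutation p was 0.10, the smallest that 3 against 3 libraries allow. C1qc relative to C1qa had mean ratios of 1.45 ± 0.06 (SD, n = 3) and 1.56 ± 0.04 in Apoe-/- cells without oxLDL and with oxLDL 60, and of 1.52 ± 0.04 and 1.71 ± 0.06 in DKO. These ranges were separated as well (exact permutation p = 0.10 each). The ratio of C1qb to C1qc stayed between 1.13 and 1.26 and its ranges overlapped in all 9 comparisons of groups. At oxLDL 10, too, every DKO library lay above every Apoe-/- library, by 0.08 (C1qb) and 0.13 (C1qc) on the log2 scale. The differences at oxLDL 60 were of the same size, 0.08 and 0.13. Exact permutation p was 0.10 for each, and in untreated cells the genotypes overlapped for both ratios (0.30 each). By group mean both ratios to C1qa were highest in DKO cells with oxLDL 60. How often the ratios of other genes separate was not examined. With oxLDL 10 in DKO the C1qb ratio was 1.85 to 1.92, below the oxLDL 60 range, and the C1qc ratio was 1.53 to 1.68, which overlapped it (exact permutation p = 0.10 and 0.20). A ratio within a library does not depend on the scaling of that library, and it does not show which chain changed. The ratios were examined after the levels had been seen, and 27 comparisons of this kind were made, none of which could reach p under 0.05.

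**Figure D2:**
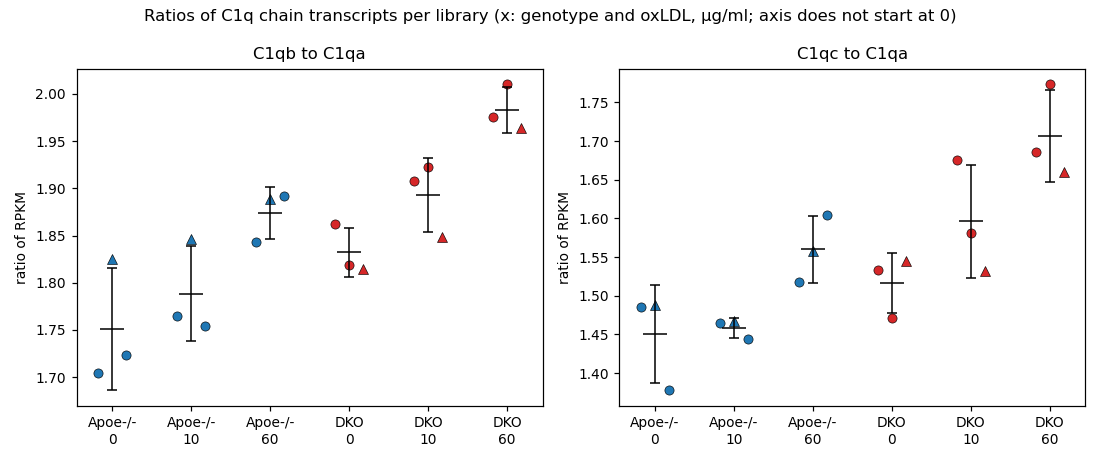
Ratio of RPKM of C1qb to C1qa (left) and of C1qc to C1qa (right) in each library, by genotype and oxLDL in µg/ml, with triangles for the libraries with Xist and the mean ± SD (n = 3) as lines. The vertical axes do not start at 0. The C1qb ratio is between 1.96 and 2.01 in DKO cells with oxLDL 60 and between 1.71 and 1.82 in untreated Apoe-/- cells.

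C3 (chr17:57203970-57228136, minus strand) showed a graded decrease. In Apoe-/- cells it was at 35.4, 53.1 and 47.2 RPKM untreated, 21.2, 26.3 and 18.9 RPKM with oxLDL 10 and 8.43, 9.98 and 8.76 RPKM with oxLDL 60. In DKO cells it was at 33.7, 33.8 and 51.1 RPKM untreated, 20.7, 18.3 and 30.4 RPKM with oxLDL 10 and 9.09, 7.75 and 12.0 RPKM with oxLDL 60. Within each genotype no treatment overlapped another, and within each treatment the genotypes overlapped. In Apoe-/- cells C3 fell by 1.02 on the log2 scale with oxLDL 10 (SE 0.21, limma adjusted p = 0.00729), and it fell by 2.29 with oxLDL 60 (SE 0.21, adjusted p = 3.14e-07), where the mean was 5.00-fold lower than in untreated cells. From oxLDL 10 to oxLDL 60 it fell by 1.27 (SE 0.21, adjusted p = 0.00051). The DKO cells showed the same order, since C3 fell by 2.02 with oxLDL 60 (SE 0.21, adjusted p = 1.43e-06) and fell by 1.24 from oxLDL 10 to oxLDL 60 (SE 0.21, adjusted p = 0.000643).

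The decrease of C3 with oxLDL 10 in DKO cells was close to the threshold, with a log2 change of -0.78 (SE 0.21, limma adjusted p = 0.0474). The change was negative in all 3 pairs of same-numbered libraries, at -0.70, -0.89 and -0.75. It was called in 8 of 17 alternative settings, with adjusted p from 1.59e-05 with the replicate block to 0.273. The call was lost without any one of DKO untreated replicates 1, 2 and 3 (log2 changes of -0.88, -0.88 and -0.58, adjusted p = 0.0598, 0.0554 and 0.273). It was also lost without DKO oxLDL 10 replicate 1 or 2 (-0.72 and -0.63, adjusted p = 0.19 and 0.251).

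Cfb (chr17:34856374-34862518, minus strand) was less abundant than C3 and also decreased with oxLDL. In Apoe-/- cells it was at 1.77, 4.17 and 3.18 RPKM untreated, 0.683, 1.504 and 0.556 RPKM with oxLDL 10 and 0.235, 0.258 and 0.272 RPKM with oxLDL 60. In DKO cells it was at 1.87, 2.25 and 3.15 RPKM untreated, 0.908, 0.965 and 1.42 RPKM with oxLDL 10 and 0.421, 0.493 and 0.504 RPKM with oxLDL 60. No treatments overlapped within a genotype. The levels corresponded to about 212 to 497 reads in untreated Apoe-/- libraries and to 32 to 35 reads with oxLDL 60, where counting error alone is up to 17.7%. In Apoe-/- cells Cfb fell by 1.66 on the log2 scale with oxLDL 10 (SE 0.31, limma adjusted p = 0.00341), and it fell by 3.06 with oxLDL 60 (SE 0.31, adjusted p = 8.55e-07), where the mean was 11.9-fold lower. For DKO, Cfb fell by 2.11 with oxLDL 60 (SE 0.31, adjusted p = 5.92e-05), where the mean was 5.13-fold lower. Since 0.1 RPKM was added before taking logarithms, the log2 changes understate those of a gene at this level, and with 1 RPKM added the changes of Cfb at oxLDL 60 were -1.64 in Apoe-/- and -1.20 in DKO.

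At oxLDL 10 in DKO cells the log2 change of Cfb was -1.07 (SE 0.31) and missed the threshold (limma adjusted p = 0.0668). With the animal as a replicate block it passed (adjusted p = 0.00269), and it passed without DKO oxLDL 10 replicate 3 (-1.25, adjusted p = 0.0462). From oxLDL 10 to oxLDL 60, the log2 change of Cfb was -1.402 in Apoe-/- (SE 0.31, adjusted p = 0.00501), a call lost with a pseudocount of 1 (adjusted p = 0.0665), and -1.04 in DKO (SE 0.31, adjusted p = 0.0293). The DKO call held in 10 of 17 alternatives and was lost without DKO oxLDL 10 replicate 2 or 3 (adjusted p = 0.0528 and 0.108) and without DKO oxLDL 60 replicate 1, 2 or 3 (0.0863, 0.0677 and 0.0598).

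Cfp (chrX:20925454-20931555, minus strand), the other member of the alternative pathway, did not follow C3 and Cfb. In Apoe-/- cells it was at 192, 236 and 226 RPKM untreated, 233, 257 and 231 RPKM with oxLDL 10 and 241, 266 and 245 RPKM with oxLDL 60. The DKO libraries were at 174, 189 and 214 RPKM untreated, 207, 211 and 230 RPKM with oxLDL 10 and 190, 186 and 239 RPKM with oxLDL 60. The highest untreated Apoe-/- library lay just below the lowest one with oxLDL 60, a separation upwards that 25.8% of all genes tested showed, and all DKO ranges overlapped. The log2 change with oxLDL 60 was 0.21 in Apoe-/- (95% interval -0.01 to 0.42, limma adjusted p = 0.137) and 0.08 in DKO (-0.13 to 0.30, adjusted p = 0.609). In Apoe-/- Cfp was higher with oxLDL 60 in all 3 pairs of same-numbered libraries, by 0.33, 0.18 and 0.12 on the log2 scale. With the replicate block the adjusted p was 0.0141 there, and the difference remained under the 1.4-fold limit. The fourth gene of the alternative pathway, Cfd (factor D, which cleaves factor B), had a mean of 0.00145 RPKM and was not tested.

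C3ar1 (chr6:122847138-122856161, minus strand), the receptor, stepped down with the least spread. In Apoe-/- cells it was at 114, 133 and 151 RPKM untreated, 98.6, 109 and 103 RPKM with oxLDL 10 and 56.4, 59.9 and 61.7 RPKM with oxLDL 60. The DKO libraries were at 128, 128 and 149 RPKM untreated, 94.7, 98.9 and 108 RPKM with oxLDL 10 and 64.0, 59.1 and 64.8 RPKM with oxLDL 60. No treatments overlapped within a genotype, and the genotypes overlapped at each treatment. C3ar1 fell by 1.15 on the log2 scale with oxLDL 60 in Apoe-/- (SE 0.09, limma adjusted p = 4.46e-08) and fell by 1.10 in DKO (SE 0.09, adjusted p = 8.83e-08). From oxLDL 10 to oxLDL 60 it fell by 0.80 in Apoe-/- (adjusted p = 1.28e-05) and fell by 0.68 in DKO (adjusted p = 6.82e-05). With oxLDL 10 alone the changes of -0.35 in Apoe-/- (adjusted p = 0.0268) and -0.42 in DKO (adjusted p = 0.0112) passed the limit on the adjusted p but not the 1.4-fold limit.

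C4b (chr17:34728380-34743882, minus strand) was at 0.025 to 0.0815 RPKM in untreated Apoe-/- cells, at 0.0249 to 0.0804 with oxLDL 10 and at 0.0108 to 0.0617 with oxLDL 60. The DKO ranges were 0.0339 to 0.0407, 0.0277 to 0.0511 and 0.0327 to 0.0596 RPKM. All of these ranges overlapped. They correspond to about 3 to 19 reads per library, and 3 reads would give 0.0103 to 0.014 RPKM. C4b was not tested, and its differences between groups could not be judged at this depth. Apoe-/- replicate 2 had about 19, 19 and 15 reads untreated, with oxLDL 10 and with oxLDL 60, against 3 to 8 in the other Apoe-/- libraries. Reads of C4b may also be shared with the near-identical C4a, which had a mean of 0.0545 RPKM.

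**Figure D3:**
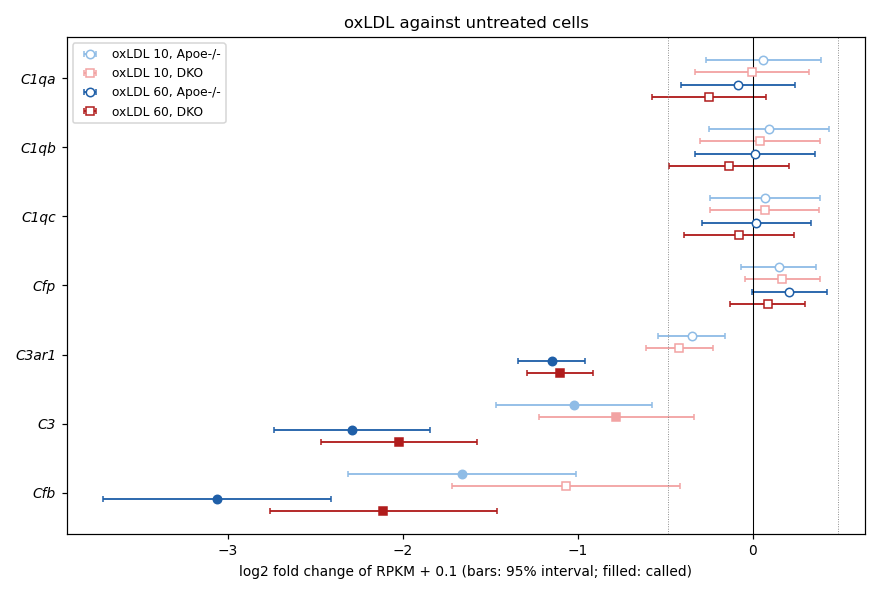
Log2 fold change of RPKM + 0.1 (horizontal axis) with oxLDL 10 and oxLDL 60 against untreated cells for the 7 tested members, in Apoe-/- (circles) and DKO (squares). Bars are 95% intervals, filled points passed both limits of the test, and dotted lines mark 1.4-fold. Cfb, C3 and C3ar1 lie to the left at oxLDL 60, at -3.06, -2.29 and -1.15 in Apoe-/-, while C1q and Cfp lie around 0.

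Counted over the 7 tested members, C3 and Cfb were called lower with oxLDL 10 in Apoe-/- cells, against 2.04% of all genes tested, and C3 alone in DKO cells, against 1.69%. With oxLDL 60, 3 members were called lower in Apoe-/- (6.78% of all genes) and the same 3 in DKO (7.31%). From oxLDL 10 to oxLDL 60 it was again these 3 in Apoe-/- (3.54%) and in DKO (3.74%). The other members tested were not called in these 6 comparisons. The same 3 members, C3, Cfb and C3ar1, were also the ones whose ranges lay wholly below those of the other group in each comparison. Over all genes this held for 6.16% (oxLDL 10), 14.9% (oxLDL 60) and 15.5% (oxLDL 60 against oxLDL 10) in Apoe-/- and for 8.9%, 28.3% and 25.8% in DKO. The median log2 change of the members with oxLDL 60 was -0.09 in Apoe-/- and -0.25 in DKO, beside 0.06 and -0.06 over all genes. The comparisons of oxLDL 10 and oxLDL 60 with untreated cells share the untreated libraries. Among the macrophage markers Lyz2, Fcgr1 and Cd14 were also called lower and Mertk higher with oxLDL 60 in both genotypes, and Adgre1 lower in Apoe-/-. Csf1r and Cd68 were not called with oxLDL 60 in either genotype, nor was Adgre1 in DKO. The summed macrophage markers were 8831 to 11638 RPKM in untreated and 6437 to 8376 RPKM in oxLDL 60 Apoe-/- cells, and 8289 to 10837 and 5480 to 7058 RPKM in DKO. These sums were mostly Lyz2. C1q and Cfp were not called with oxLDL 60. The intervals of all 3 C1q chains still held decreases in both genotypes, the largest for C1qa in DKO (log2 change -0.58 to 0.08). The part of these marker differences in the decrease of C3, Cfb and C3ar1 was not tested.

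Between genotypes, 0 of the 7 tested members were called. Over all genes 0.21% were called in untreated cells, 0.0857% with oxLDL 10 and 0.125% with oxLDL 60. At an unadjusted limma p under 0.05, no member passed in untreated or oxLDL 10 cells, and C1qa, Cfb and Cfp passed at oxLDL 60. Over all genes 17.3%, 9.75% and 7.88% passed that limit in untreated, oxLDL 10 and oxLDL 60 cells. The 95% intervals of the log2 difference of DKO minus Apoe-/- at oxLDL 60 were -0.38 to 0.51 for C3 and -0.11 to 0.27 for C3ar1.

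Cfb was higher in DKO than in Apoe-/- at oxLDL 60 in every library, 0.421 to 0.504 against 0.235 to 0.272 RPKM, a mean ratio of 1.85. The log2 difference was 0.69 (95% interval 0.04 to 1.34, limma adjusted p = 0.621), and 4.49% of all genes tested had DKO ranges wholly above those of Apoe-/-. The interaction of genotype and oxLDL 60, which asks whether the oxLDL 60 response differed between genotypes, was 0.95 for Cfb (SE 0.44, limma adjusted p = 0.509). Median ratio scaling moved the median of this interaction over all genes by 0.12 and gave 1.07 for Cfb. No member was called in the interaction with oxLDL 10 or oxLDL 60, beside 0% and 0.0156% of all genes. The log2 difference of Cfb at oxLDL 60 was 0.65 among the libraries without Xist, 2 of each genotype, and 0.75 between the libraries with Xist, 1 of each genotype. At oxLDL 10 the same sets gave 0.53 and -0.07.

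Cfp was lower in DKO in every library at oxLDL 60, 186 to 239 against 241 to 266 RPKM, and in every library at oxLDL 10, 207 to 230 against 231 to 257 RPKM, where the nearest values almost met. Ranges were separated in this direction for 12% of all genes at oxLDL 60 and for 3.12% at oxLDL 10. The log2 differences were -0.30 (95% interval -0.52 to -0.09, limma adjusted p = 0.503) and -0.16 (-0.37 to 0.06, adjusted p = 0.611). For C1qa the difference at oxLDL 60 was -0.38 (-0.71 to -0.06, limma adjusted p = 0.583), and the ranges overlapped. C1qb and C1qc differed in the same direction, by -0.30 (-0.65 to 0.04, limma adjusted p = 0.667) and -0.26 (-0.57 to 0.06, adjusted p = 0.691). Among the libraries without Xist their differences were -0.305 and -0.251, and between those with Xist -0.298 and -0.263. With a term for the libraries with Xist in the model, the adjusted p at oxLDL 60 was 0.044 for Cfp and 0.0445 for C1qa, and both differences were under the 1.4-fold limit. Among the libraries without Xist alone, the log2 differences at oxLDL 60 were -0.37 for Cfp and -0.40 for C1qa (adjusted p = 0.0827 and 0.186). Between the libraries with Xist, 1 of each genotype, they were -0.16 for Cfp and -0.35 for C1qa.

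**Figure D4:**
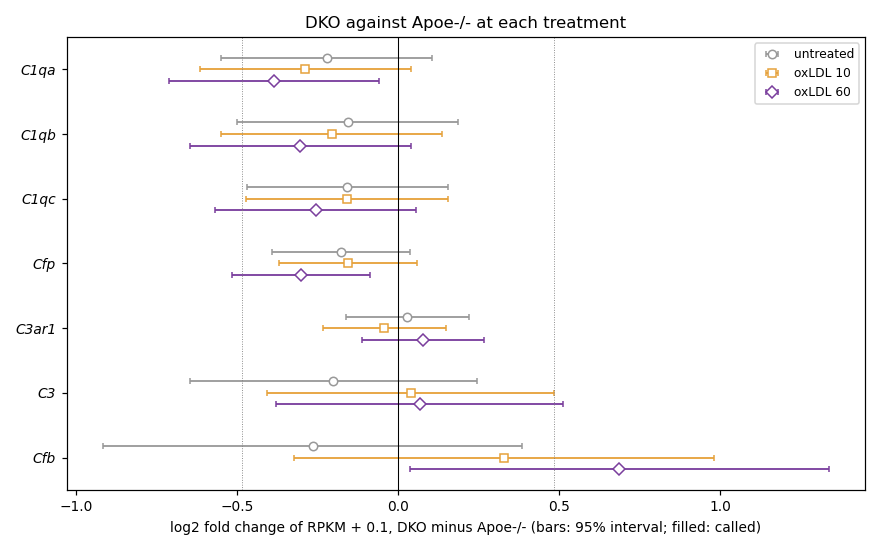
Log2 fold change of RPKM + 0.1, DKO minus Apoe-/- (horizontal axis), for the 7 tested members in untreated cells (circles), with oxLDL 10 (squares) and with oxLDL 60 (diamonds). Bars are 95% intervals, dotted lines mark 1.4-fold and no point is filled, since none was called. At oxLDL 60 the intervals of Cfb (0.04 to 1.34), Cfp (-0.52 to -0.09) and C1qa (-0.71 to -0.06) do not hold 0.

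The spread within groups was shared among members to differing degrees. In all 6 groups the library with Xist had the highest level of C1qa, C1qb, C1qc, C3 and Cfp, and it did so in 5 groups for Cfb and in 4 for C3ar1 and C4b. After the group means were removed, Pearson's r over the 18 libraries was 0.883 for C3 with C1qa, 0.925 for Cfp with C1qa and 0.811 for Cfb with C1qa. It was lower for C3ar1 with C1qa (0.652), C4b with C1qa (0.613) and C4b with C3ar1 (0.184). The same 6 libraries held the lowest sums of the fibroblast or stromal markers, 0.62 to 1.44 RPKM against 3.71 to 15.2 RPKM in the other 12, and of the neutrophil markers, 31.4 to 39.8 against 40.7 to 85.1 RPKM. The library with Xist also had the highest sum of the macrophage markers in 6 of 6 groups, a sum that was mostly Lyz2. Each genotype had 1 animal with Xist, so sex and animal cannot be told apart, and the part of the marker differences in the members' levels was not tested.

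Over the 18 libraries, the patterns of C3, C3ar1 and Cfb resembled each other, with Pearson's r of 0.977 for C3 with C3ar1, 0.959 for C3 with Cfb and 0.936 for C3ar1 with Cfb. Among 10102 genes with a mean of at least 1 RPKM, the 3 most like C3 were Siglece (r = 0.990), Iigp1 (0.989) and Ptges (0.989). Those most like C3ar1 were Tgtp2, Tnip3 and Usp25 (0.991 each), and those most like Cfb were Slc31a2 (0.970), Traf1 (0.969) and Gbp2 (0.969). Iigp1, Tgtp2 and Gbp2 encode interferon-inducible GTPases, Tnip3 and Traf1 take part in NF-kappaB signalling, and Ptges makes prostaglandin E. For C1q, apart from the other chains, Tnfaip8l2 was among the most alike for all 3 chains (0.945 to 0.962), and Colec12 for C1qc (0.947). For Cfp they were Nxpe5 (0.955), Xbp1 (0.952) and Surf4 (0.939). The points share treatments and animals, so these values describe the pattern and were not tested.

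Of 57 listed complement genes, 49 were in the table and 27 were tested, 20 of them besides the members. With oxLDL 60 in Apoe-/- cells, 1 of these 20 was called higher and 2 lower, beside 7.13% and 6.78% of all genes, and in DKO 0 and 1, beside 4.87% and 7.31%. C5ar1, the receptor for C5a, fell by 0.55 on the log2 scale in DKO (limma adjusted p = 0.000564), and in Apoe-/- the change of -0.43 was under the fold limit (adjusted p = 0.00401). Without DKO oxLDL 60 replicate 2 the DKO change of C5ar1 was -0.43, also under that limit. From oxLDL 10 to oxLDL 60, C5ar1 fell by 0.60 in DKO (limma adjusted p = 0.000643), where 3.74% of all genes were called lower. This call was lost without the same library (-0.48). In Apoe-/- the change of -0.45 was under the fold limit (adjusted p = 0.00588). With oxLDL 60 against untreated cells, the decay accelerator Cd55 fell by 0.82 in Apoe-/- (adjusted p = 0.015). Its change in DKO was -0.50 (adjusted p = 0.142), at levels of 0.169 to 0.852 RPKM. The remaining calls against untreated cells were C1rl, which fell by 0.82 (adjusted p = 0.0125), and C8g, which rose by 0.93 (adjusted p = 0.00921). Both were in Apoe-/- and under 1 RPKM, and they were named after their values had been seen. The call of Cd55 was lost without untreated replicate 2 or 3 of Apoe-/- (limma adjusted p = 0.0535 and 0.0813), and that of C1rl without untreated replicate 2 or oxLDL 60 replicate 3 (0.0612 and 0.0753). Without the libraries with Xist, Cd55 also missed the limit (adjusted p = 0.055). With a pseudocount of 1 the changes of C1rl, Cd55 and C8g were -0.25, -0.31 and 0.21, all under the fold limit. Several receptors that bind fragments of C3, and the regulator Cr1l, were not called in any comparison. The receptors were Itgam and Itgb2 (complement receptor 3, 80.2 to 125 and 174 to 239 RPKM), Itgax (2.67 to 8.36), and Vsig4 (0.788 to 2.57), and Cr1l was at 23.1 to 29.5 RPKM. The partners that C1q needs in the classical pathway were scarce, with C1ra at 1.56 to 3.05 RPKM, C2 at 0.0893 to 0.327 RPKM and C1s1 at no more than 0.0452 RPKM. The only gene of the terminal pathway that was tested was C8g, and Hc, the gene of C5, had a mean of 0.000463 RPKM.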

How the data were processed

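RNA was measured in 18 BMDM libraries, grouped by the sample labels. The authors aligned the reads with STAR to mm10, per the submitters' processing notes, and deposited 1 table of RPKM values. The counting tool and annotation of these values are not given in the sources used here. The authors' own test used counts, so limma was applied to the RPKM instead. Labels name more than 1 platform and read length, and their assignment to libraries was not resolved. RPKM share a library's total, so a few abundant RNAs can shift all other values.

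Depth was recovered from low RPKM, which rise in steps of 1 read. Steps of whole reads were found for 2800 of 3385 low genes. Of the values of these low genes, 77.6% lay within 0.05 of a whole multiple of the lowest. Whole reads were thus not recovered for every gene, and no count test was run. Lengths came from the longest transcript in GENCODE M21, and the errors given with read numbers cover counting error only.

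Values were tested as log2(RPKM + 0.1) for genes that reached 0.1 RPKM in 3 or more libraries, with 1 model of 6 group means over 18 libraries (limma 3.58.1, R 4.3.3, lmFit and eBayes with trend). P-values were adjusted by Benjamini-Hochberg over 12838 genes within each comparison, and a call required adjusted p under 0.05 and a fold change of at least 1.4. The procedure was tested on simulated data. Ratios were compared with exact permutation tests (scipy 1.17.1). Alternatives were other pseudocounts, no filter, a mean of at least 1 RPKM, no fold limit, median ratio scaling, only the groups compared, no trend, a replicate block, a term for or removal of the libraries with Xist, and leaving out each library.

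Deviations from the group means correlated positively for each of the 18 pairs of same-numbered libraries of a genotype (0.18 to 0.69). For this reason the number was taken to mark an animal within a genotype. The median for other numbers was -0.35. It is no separate evidence, since the deviations in a group sum to 0 and positive same-number values entail negative others. The number was not taken to pair genotypes (median -0.17).

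Genes named were the 8 members, other listed complement genes that were called with a mean of at least 1 RPKM or are direct partners of a member, and for each tested member the 3 genes with the highest Pearson's r over 18 libraries. The members and lists were chosen with earlier results of these data known.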

Additional observations from a re-analysis of the deposited data

How the results depend on the processing

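All 15 calls of single complement members kept their direction in 255 alternatives, and 238 of these remained called. Part of this was fixed in advance. With no fold limit the main fit was reused, so no direction or call could be lost. The replicate block and the term for Xist libraries leave the log2 changes within a genotype as they are, so they could not turn a direction. The 17 lost calls concerned C3 with oxLDL 10 in DKO and Cfb between the oxLDL amounts. The number of members called with oxLDL 10 in DKO, 1 in the report, was 2 with no fold limit, with the replicate block, with the term for Xist libraries and without the Xist libraries. It was 0 with no filter, median ratio scaling, only the groups compared and no trend, and 0 to 2 when single libraries were left out. The replicate block, which treats libraries of 1 animal as paired, changed 1 call of a single member, Cfb with oxLDL 10 in DKO.

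Signs turned only among differences that were not called, listed first for oxLDL against untreated cells and for DKO against Apoe-/-. With median ratio scaling these were C1qa with oxLDL 10 in Apoe-/- (log2 change -0.003), C1qb (-0.049) and C1qc (-0.042) with oxLDL 60 in Apoe-/-, and DKO against Apoe-/- for C3 at oxLDL 10 (-0.017) and C3ar1 untreated (-0.071). Without the Xist libraries they were C3 at oxLDL 10 (-0.045) and oxLDL 60 (-0.033) and C3ar1 untreated (-0.036), all between genotypes. Leaving out single libraries gave -0.082 to 0.16 for C1qa, -0.070 to 0.22 for C1qb and -0.065 to 0.18 for C1qc with oxLDL 10 in Apoe-/-, and -0.23 to 0.0089, -0.15 to 0.14 and -0.11 to 0.13 with oxLDL 60. In DKO it gave -0.11 to 0.068, -0.049 to 0.11 and -0.017 to 0.15 with oxLDL 10, and with oxLDL 60 -0.19 to 0.0083 for C1qc and -0.032 to 0.16 for Cfp. Between genotypes it gave -0.17 to 0.19 and -0.10 to 0.21 for C3 at oxLDL 10 and oxLDL 60, and -0.077 to 0.13 and -0.095 to 0.00 for C3ar1 untreated and at oxLDL 10. Signs also turned outside this list. From oxLDL 10 to oxLDL 60 in Apoe-/-, the alternatives gave -0.20 to 0.07 for C1qb and -0.16 to 0.08 for C1qc. Interactions of genotype and oxLDL turned too, such as that of C1qc with oxLDL 10 (-0.12 to 0.13) and with oxLDL 60 (-0.21 to 0.03). The causes were not tested.

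Depth limited C4b, and the read number of Cfb at oxLDL 60 was low. With 3 libraries a group, an exact test of 1 gene cannot pass 0.05.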
